A study of Mus musculus with 8 samples.

Results

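CC chemokines are small secreted proteins that draw leukocytes towards a site of inflammation. They bind G protein-coupled receptors of the CCR family and are named for a pair of adjacent cysteines near the N-terminus. The 10 mouse genes described here were chosen by name from the table of expected counts, namely *Ccl2*, *Ccl7*, *Ccl12*, *Ccl5*, *Ccl9*, *Ccl6*, *Ccl3*, *Ccl4*, *Ccl22* and *Ccl17*. They are 10 of the 50615 genes in the table, and all 10 were among the 17625 genes that had at least 10 counts over the 8 libraries. *Ccl22* and *Ccl17* passed that filter through the stimulated cells.

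The libraries came from bone marrow-derived macrophages (BMDMs) of C57BL/6 mice, grown from bone marrow for 6 days with M-CSF at 20 ng/ml. All mice carried *Ncoa6* fl/fl, a floxed allele of the gene for the transcriptional coactivator NCOA6. *Ncoa6*-KO mice also carried LysM-Cre, a Cre recombinase made from the lysozyme 2 locus in myeloid cells, and the labels call the *Ncoa6* fl/fl mice without Cre WT. BMDMs of both genotypes were kept in medium alone, or were primed for 4 h with 100 ng/ml lipopolysaccharide (LPS, a ligand of TLR4) and received 200 µg/ml monosodium urate (MSU) crystals for the next 2 h. There were 2 libraries in each of the 4 groups, numbered 1 and 2, and the sex and age of the mice are not given in the sources used here. Since LPS and MSU were given together and no group had LPS alone, their effects cannot be told apart.

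Macrophages are a main source of CC chemokines. LPS is known to switch on many of these genes through NF-κB and interferon regulatory factors, while other members are made by resting macrophages. The family falls into groups by receptor and position. *Ccl2*, *Ccl7* and *Ccl12* encode monocyte chemoattractants that bind CCR2. *Ccl3*, *Ccl4* and *Ccl5* encode attractants of monocytes and T cells, and *Ccl6* and *Ccl9* encode ligands of CCR1. *Ccl17* and *Ccl22* encode ligands of CCR4, a receptor of T cells. On GRCm38, 8 of the 10 genes lie on chromosome 11 and 2 on chromosome 8. *Ccl2* and *Ccl7* are 8.26 kb apart, and *Ccl12* follows after 54.3 kb. *Ccl5*, *Ccl9*, *Ccl6*, *Ccl3* and *Ccl4* lie together in another stretch of the same chromosome, where *Ccl9* and *Ccl6* are 9.24 kb apart and *Ccl3* and *Ccl4* 13.2 kb. *Ccl22* and *Ccl17* are 58.8 kb apart on chromosome 8.

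RefSeq's promoter table of GRCm38.p6 held 6 of the 10 genes, *Ccl12*, *Ccl9*, *Ccl6*, *Ccl3*, *Ccl22* and *Ccl17*. The 250 bases before the start of 5 of them are shown, since their RNA behaved in different ways. *Ccl12* was low in medium and rose steeply. *Ccl9* was high in medium and rose less, while its neighbour *Ccl6* was not called changed. *Ccl3* was the most abundant member with LPS + MSU, and *Ccl17* had more RNA in both *Ncoa6*-KO libraries than in both WT libraries with LPS + MSU. Sequences read 5′ to 3′ on the strand of the gene, and capitals mark the motif matches described next.
*Ccl12*, chr11:82101595-82101844, plus strand: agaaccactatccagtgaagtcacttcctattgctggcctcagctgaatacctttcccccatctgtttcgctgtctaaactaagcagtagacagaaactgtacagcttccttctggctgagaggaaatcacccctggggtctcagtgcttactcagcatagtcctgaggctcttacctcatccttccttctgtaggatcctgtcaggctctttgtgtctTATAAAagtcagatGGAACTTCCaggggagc
*Ccl9*, chr11:83578637-83578886, minus strand: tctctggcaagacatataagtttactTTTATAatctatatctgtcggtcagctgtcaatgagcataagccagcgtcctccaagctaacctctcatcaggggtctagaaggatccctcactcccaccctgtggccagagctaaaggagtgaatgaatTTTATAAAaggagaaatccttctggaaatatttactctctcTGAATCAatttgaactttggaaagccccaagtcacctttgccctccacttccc
*Ccl6*, chr11:83593088-83593337, minus strand: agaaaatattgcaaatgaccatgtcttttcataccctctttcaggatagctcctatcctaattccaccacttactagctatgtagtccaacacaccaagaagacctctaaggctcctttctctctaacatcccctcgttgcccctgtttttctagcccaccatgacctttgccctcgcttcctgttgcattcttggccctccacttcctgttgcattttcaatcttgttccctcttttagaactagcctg
*Ccl3*, chr11:83649379-83649628, minus strand: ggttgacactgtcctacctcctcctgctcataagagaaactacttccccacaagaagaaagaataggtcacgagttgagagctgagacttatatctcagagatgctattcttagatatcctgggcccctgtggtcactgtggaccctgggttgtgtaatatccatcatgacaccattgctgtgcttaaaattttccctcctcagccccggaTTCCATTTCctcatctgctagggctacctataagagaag
*Ccl17*, chr8:94810203-94810452, plus strand: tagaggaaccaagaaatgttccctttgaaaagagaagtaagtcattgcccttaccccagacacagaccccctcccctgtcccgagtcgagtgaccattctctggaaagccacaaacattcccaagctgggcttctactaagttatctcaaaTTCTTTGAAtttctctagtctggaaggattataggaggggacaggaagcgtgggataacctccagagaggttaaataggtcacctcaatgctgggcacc

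In all, 6 motifs were searched on both strands of these windows, without mismatches. The κB motif GGANNTTCC was found in *Ccl12*, 17 to 9 bases before the start, beside a TATA motif (TATAAA) 31 to 26 bases before it. *Ccl9* held the AP-1 motif TGANTCA 53 to 47 bases before the start, and the TATA motif 92 to 87 bases before it and on the opposite strand at 94 to 89 (overlapping the former) and 224 to 219 bases. *Ccl3* held the ISRE motif GAAANNGAA on the opposite strand, 39 to 31 bases before the start. *Ccl17* held the STAT motif TTCNNNGAA 99 to 91 bases before the start. *Ccl6* and *Ccl22* held none of the 6, and the C/EBP motif TTGCNNAA was in none of the 6 windows. Of all 32851 windows of that length in the table, 3.59% held the κB motif, 12.4% the TATA motif, 6.75% the AP-1 motif, 7.13% the ISRE motif, 7.02% the STAT motif and 9.56% the C/EBP motif. A match describes letters only and binding was not measured.

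Library totals ran from 25281955 to 33673552 expected counts. Values below are normalized counts, that is counts brought to a common library size with edgeR's TMM factors (0.766 to 1.29), and means are given with SD over 2 libraries. *Ncoa6* itself had 1515 and 1405 normalized counts in WT and 784 and 622 in *Ncoa6*-KO libraries with medium alone. With LPS + MSU it had 1297 and 1173 in WT and 563 and 526 in *Ncoa6*-KO libraries, so every library matched its label. Macrophage markers such as *Adgre1*, *Csf1r* and *Cd68* were high in every library, with *Csf1r* between 41875 and 63965 normalized counts. *Lyz2*, which carries the Cre, fell to between 111993 and 129385 normalized counts in *Ncoa6*-KO libraries from between 209893 and 272098 in WT. Without *Lyz2*, the other 7 macrophage markers summed to 177863 to 181214 in WT and 137879 to 161001 in *Ncoa6*-KO libraries with medium alone, and to 267974 to 274109 and 235585 to 251050 with LPS + MSU. In bulk RNA, fewer cells of a type and less RNA per cell cannot be told apart, and the part of this difference in the knockout values of the chemokines was not tested.

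LPS + MSU raised 9 of the 10 CC chemokine genes in WT BMDMs and the same 9 in *Ncoa6*-KO BMDMs, at an adjusted p under 0.05 in edgeR's quasi-likelihood test. *Ccl6* was the exception in both genotypes. Of all genes tested, 24.7% were called higher in WT and 25.2% in *Ncoa6*-KO BMDMs. The median log2 fold change of the 10 members was 6.01 in WT (5.97 with *Ccl17* at its lower bound) and 6.25 in *Ncoa6*-KO BMDMs, against -0.12 and -0.07 over all genes. The members together took 0.0812% to 0.132% of the counts of a library in medium and 1.44% to 1.72% with LPS + MSU. Scaling by library totals, an alternative added after seeing the data, moved the median of all genes to -0.78 and -0.71 and left all 9 calls in both genotypes. The size of the rises depended on this choice, since TMM factors were 1.23 to 1.29 in medium and 0.766 to 0.829 with LPS + MSU. With library totals the log2 rise in WT was 2.12 instead of 2.79 for *Ccl9* and 4.48 instead of 5.15 for *Ccl2*. Folds below use TMM, while the TPM further below do not.

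**Figure D1:**
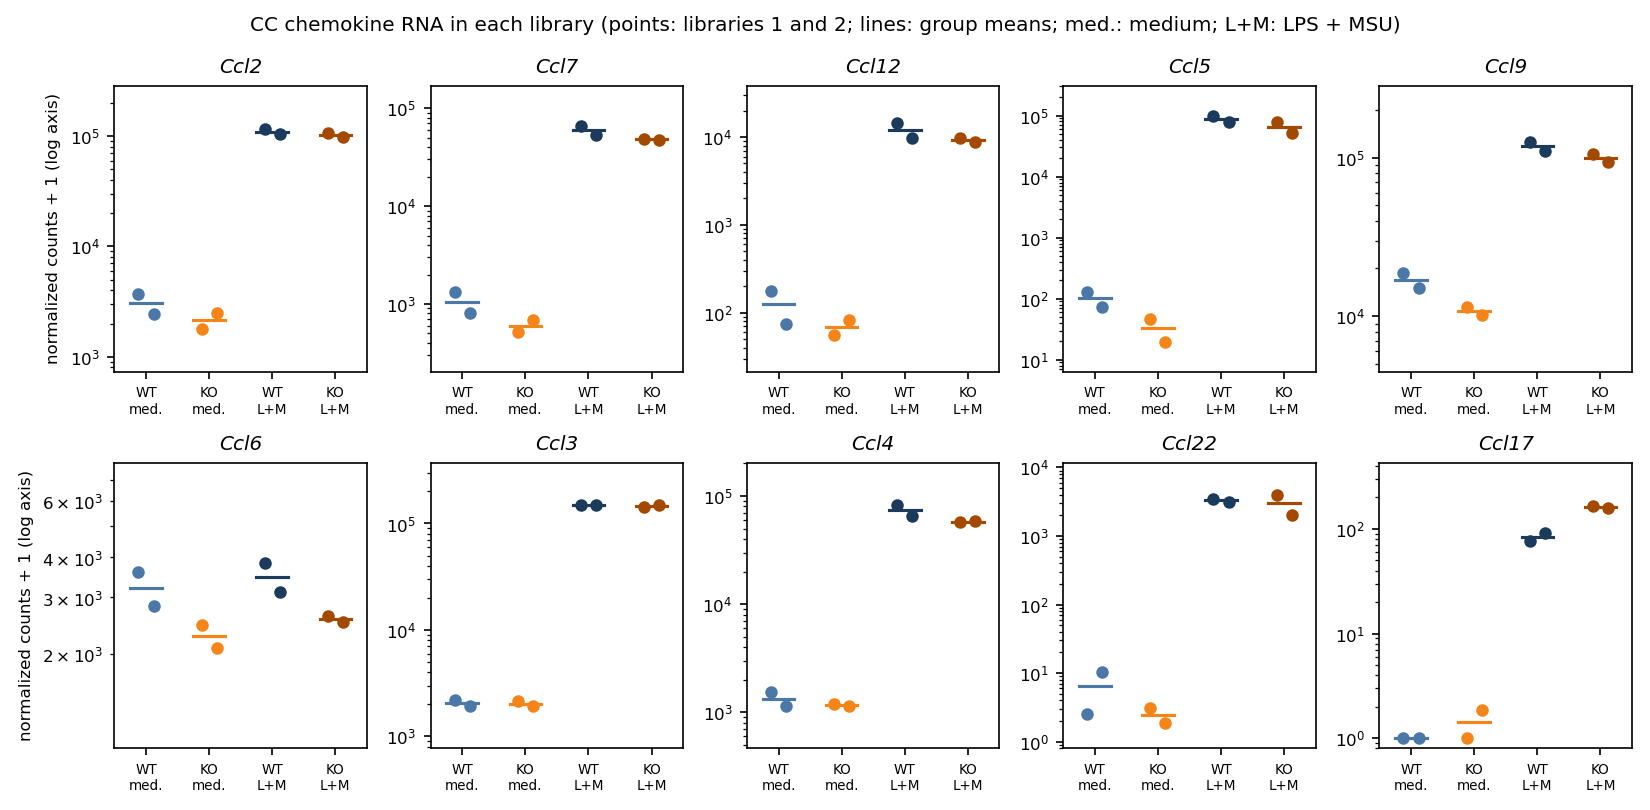
Normalized counts plus 1 of each CC chemokine gene (log axis, own range in each panel) in the 8 libraries; points are libraries 1 and 2 of each group and lines are group means. All members but *Ccl6* sit far higher with LPS + MSU, and *Ccl17* is the member whose *Ncoa6*-KO libraries with LPS + MSU, at 166 and 158, lie above WT at 76.2 and 90.9.

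Among the CCR2 ligands, *Ccl2* (MCP-1, the main attractant of monocytes from blood) was already well expressed in medium. WT libraries had 3690 and 2460 normalized counts and *Ncoa6*-KO libraries 1796 and 2465. With LPS + MSU the values were 115517 and 103573 in WT and 107105 and 98289 in *Ncoa6*-KO libraries. The genotypes overlapped in both conditions. *Ccl2* rose 35.6-fold in WT (log2 fold change 5.15, SE 0.233) and 48.2-fold in *Ncoa6*-KO BMDMs (5.59, SE 0.238), with edgeR adjusted p = 1.17e-08 and 7.63e-09.

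*Ccl7* (MCP-3) had 1316 and 800 normalized counts in WT and 516 and 684 in *Ncoa6*-KO libraries with medium alone. With LPS + MSU it had 66326 and 53404 in WT and 49094 and 47761 in *Ncoa6*-KO libraries. Both *Ncoa6*-KO libraries lay below both WT libraries in each condition. The rise was 56.5-fold in WT and 80.9-fold in *Ncoa6*-KO BMDMs. *Ccl12* (MCP-5) was lower than both in medium, with 174 and 74 normalized counts in WT and 54.9 and 80.8 in *Ncoa6*-KO libraries. It reached 14450 and 9688 in WT and 9791 and 8842 in *Ncoa6*-KO libraries with LPS + MSU, a rise of 96.1-fold and 139-fold. Its genotypes overlapped in both conditions, and the WT libraries in medium differed 2.35-fold from each other.

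*Ccl5* (RANTES, an attractant of T cells and monocytes) had the largest rise of the 8 members with counts in every library. It had 129 and 71.4 normalized counts in WT and 45.2 and 18.4 in *Ncoa6*-KO libraries with medium alone. With LPS + MSU the values were 99594 and 79147 in WT and 77493 and 50923 in *Ncoa6*-KO libraries. *Ncoa6*-KO libraries lay below WT in both conditions. The rise was 883-fold in WT (log2 9.79, SE 0.401) and 1944-fold in *Ncoa6*-KO BMDMs (log2 10.92, SE 0.432). The difference between these responses was 1.14 on the log2 scale (95% interval 0.05 to 2.23), with an unadjusted p of 0.0427 and an adjusted p of 0.817 in edgeR over all genes, and so it was not called. It ran from 0.64 to 1.97 when 1 library was left out.

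*Ccl9* (MIP-1γ) is made by resting macrophages and had the highest level per length of the members in medium. Its normalized counts were 18802 and 15146 in WT and 11370 and 10122 in *Ncoa6*-KO libraries with medium alone. With LPS + MSU they were 124602 and 110496 in WT and 105967 and 93225 in *Ncoa6*-KO libraries. *Ncoa6*-KO libraries lay below WT in both conditions. The rise of *Ccl9*, 6.92-fold in WT and 9.27-fold in *Ncoa6*-KO BMDMs, was the smallest of the 9 members called.

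*Ccl6* (C10), the neighbour of *Ccl9*, had 3603 and 2815 normalized counts in WT and 2455 and 2088 in *Ncoa6*-KO libraries with medium alone. With LPS + MSU it had 3842 and 3125 in WT and 2628 and 2514 in *Ncoa6*-KO libraries. The conditions overlapped in WT, while in *Ncoa6*-KO BMDMs both stimulated libraries lay above both in medium. The log2 change with LPS + MSU was 0.12 in WT (95% interval -0.19 to 0.42, edgeR adjusted p = 0.504) and 0.18 in *Ncoa6*-KO BMDMs (-0.13 to 0.49, adjusted p = 0.311). Scaled by library totals it was -0.55 (adjusted p = 0.00241) and -0.45 (adjusted p = 0.00876), so its direction depended on the scaling. A transcript on the opposite strand, *E230016K23Rik*, overlaps *Ccl6*, and a gene without a symbol (ENSMUSG00000092157) overlaps *Ccl2* in the same way. The kit kept strand, but whether the counting used it is not given in the sources used here.

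The pair *Ccl3* and *Ccl4* (MIP-1α and MIP-1β, macrophage inflammatory proteins) are encoded side by side. *Ccl3* had 2177 and 1928 normalized counts in WT and 2141 and 1919 in *Ncoa6*-KO libraries with medium alone. With LPS + MSU it had 150412 and 150179 in WT and 143551 and 147693 in *Ncoa6*-KO libraries. It rose 73.2-fold in WT and 71.7-fold in *Ncoa6*-KO BMDMs, and the difference of the log2 responses was -0.03 (95% interval -0.41 to 0.35). *Ccl4* had 1526 and 1151 normalized counts in WT and 1189 and 1156 in *Ncoa6*-KO libraries with medium alone, and 82263 and 64844 against 57981 and 58056 with LPS + MSU. *Ccl4* rose 54.9-fold in WT and 49.5-fold in *Ncoa6*-KO BMDMs.

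The CCR4 ligands were close to absent in medium. *Ccl22* (MDC) had 1.5 and 9.46 normalized counts in WT and 2.09 and 0.878 in *Ncoa6*-KO libraries, 13 and 4 reads in all. With LPS + MSU it had 3502 and 3074 in WT and 4012 and 2001 in *Ncoa6*-KO libraries. The *Ncoa6*-KO libraries with LPS + MSU differed 2.01-fold from each other and lay on either side of WT. The ratio of stimulated to unstimulated counts was 631 in WT (95% exact interval 369 to 1186) and 1959 in *Ncoa6*-KO BMDMs (765 to 7194), and these intervals cover counting error only. The WT libraries in medium held 2 and 11 reads, and the fitted log2 response in WT ran from 8.42 without WT library 1 in medium to 10.98 without WT library 2.

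*Ccl17* (TARC) had 0 reads in both WT libraries and 1 read in *Ncoa6*-KO libraries with medium alone. With LPS + MSU it had 76.2 and 90.9 normalized counts in WT and 166 and 158 in *Ncoa6*-KO libraries. *Ccl17* was at least 69.5-fold higher with LPS + MSU in WT, with the floor set at 3 counts over the group. In *Ncoa6*-KO BMDMs the ratio was 418 (95% exact interval 74.3 to 16576, counting error only). *Ccl17* and *Ccl22* are also made by dendritic cells, and the 8 dendritic cell markers of the marker list summed to 45.7 to 64.5 normalized counts in medium. With LPS + MSU they summed to 226 to 294 in WT and 167 to 204 in *Ncoa6*-KO libraries, mostly from *Xcr1* and *Clec9a*. *Flt3* stayed at or below 5.6 normalized counts and *Zbtb46* at or below 7.65 in every library. Of the 8 dendritic cell markers, 6 passed the count filter and none of them was called between genotypes.

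**Figure D2:**
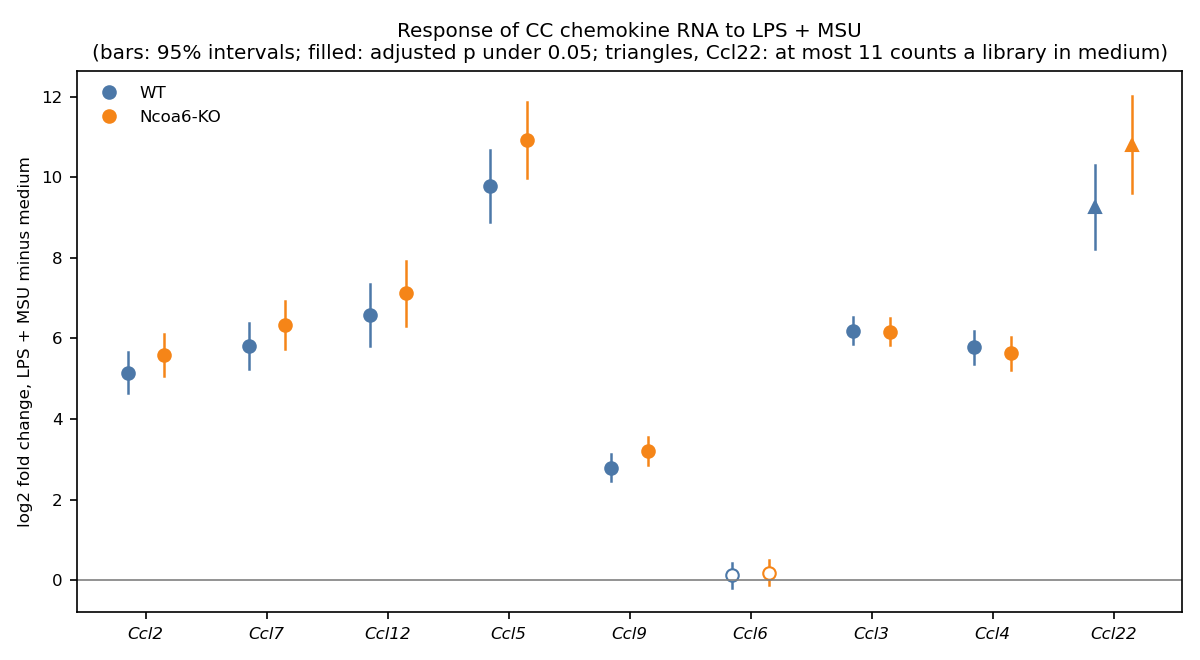
Log2 fold change of LPS + MSU over medium for 9 members in WT and *Ncoa6*-KO BMDMs, with 95% intervals from the edgeR fit; *Ccl17*, at 0 or 1 count per group in medium, is left out. *Ccl5* shows 9.79 in WT and 10.92 in *Ncoa6*-KO BMDMs, *Ccl9* 2.79 and 3.21, and *Ccl6* lies near 0 in both.

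Levels of different genes were compared per kilobase of exon, as TPM (counts per kilobase, scaled to the same sum in each library) computed from the counts. The 10 members summed to 1518 to 2337 TPM in medium and 43114 to 51834 TPM with LPS + MSU. In WT medium the order was *Ccl9* (mean 689 TPM), *Ccl2* (334), *Ccl3* (331), *Ccl4* (251), *Ccl6* (221), *Ccl7* (164), *Ccl12* (28.7), *Ccl5* (12.9) and *Ccl22* (0.288), with *Ccl17* at 0. *Ccl2* and *Ccl3*, *Ccl4* and *Ccl6*, *Ccl6* and *Ccl7*, and *Ccl12* and *Ccl5* overlapped between the libraries. *Ncoa6*-KO medium kept *Ccl9* at the top (450 TPM), and *Ccl3* came next (338 TPM).

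With LPS + MSU, *Ccl3* led in both genotypes, at 14923 TPM in WT and 15293 TPM in *Ncoa6*-KO BMDMs. In WT it was followed by *Ccl4* (8477), *Ccl2* (7322), *Ccl5* (7081) and *Ccl7* (5685), and neighbours among these 4 overlapped. *Ccl9* (2936) and *Ccl12* (1710) came after them, then *Ccl6* (148), *Ccl22* (108) and *Ccl17* (12.4). The make-up of the family therefore differed between conditions. *Ccl9* fell from 34.1% of the summed TPM to 6.07% in WT and from 29.4% to 5.95% in *Ncoa6*-KO BMDMs, although its own RNA rose. *Ccl5* went from 0.622% to 14.6% in WT and from 0.275% to 12.1% in *Ncoa6*-KO BMDMs. *Ccl3* held 16.5% in WT and 22.1% in *Ncoa6*-KO BMDMs in medium, and 31.0% and 34.7% with LPS + MSU. These shares are a description without a test. With the longest transcript as the length, *Ccl5*, whose annotated exons exceed that transcript, held 19.6% in WT with LPS + MSU.

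**Figure D3:**
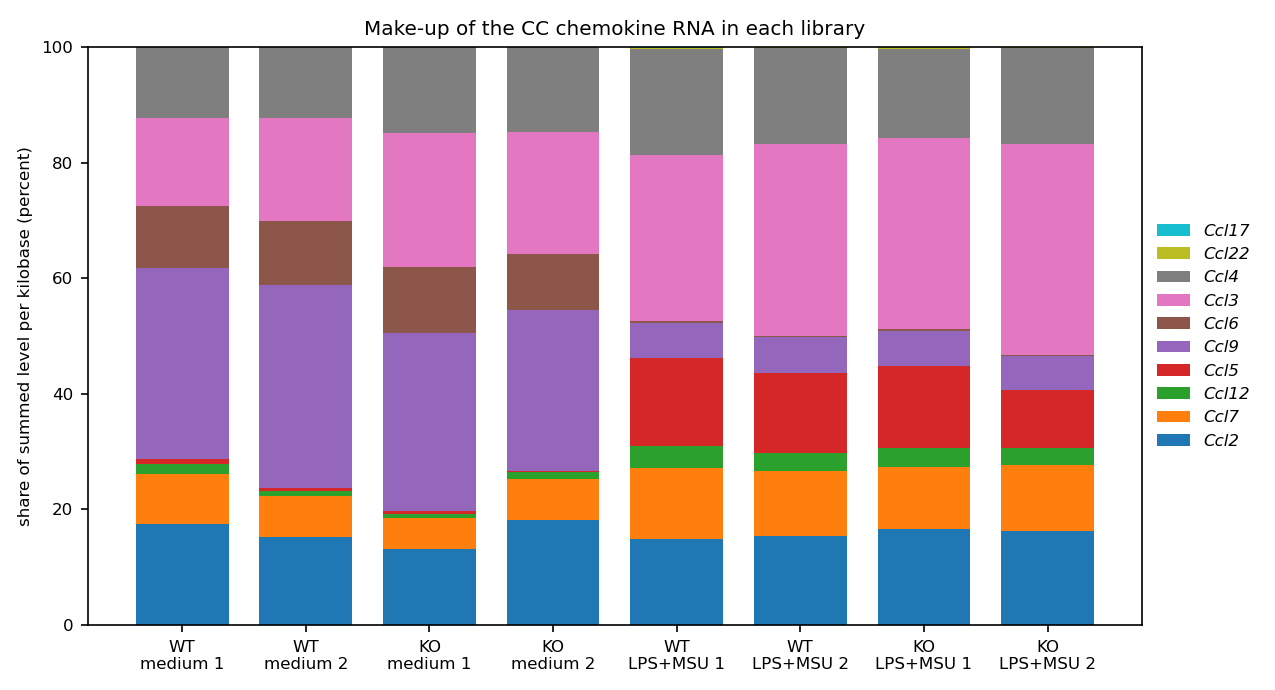
Share of each member in the summed TPM of the 10 CC chemokine genes, in percent, stacked for each library. *Ccl9* fills 27.8% to 35.1% in medium and 5.78% to 6.13% with LPS + MSU, while *Ccl3* fills 28.8% to 36.4% with LPS + MSU.

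The comparison of genotypes asks whether NCOA6 loss changes the RNA of these genes at rest or after the stimulus. With medium alone, 1 of the 10 members, *Ccl9*, was called lower in *Ncoa6*-KO BMDMs and none was called higher, where 1.30% of all genes tested were called lower. The fitted log2 fold change was below 0 for all 8 members with counts in every library (*Ccl17* and *Ccl22* left out for low counts), with a median of -0.60 against -0.03 over all genes, although *Ccl3* lay at or above 0 under other scalings. *Ncoa6*-KO libraries lay below both WT libraries for 4 of 10 members (*Ccl7*, *Ccl5*, *Ccl9* and *Ccl6*), where 24.5% of all genes did so. An unadjusted p under 0.05 was found for 6 members, where 12.8% of all genes tested had one. The members are not independent of each other, since they were measured in the same libraries.

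*Ccl9* had 63.3% of the WT level in *Ncoa6*-KO BMDMs with medium alone (10746 ± 882 against 16974 ± 2586 normalized counts, SD, n = 2 libraries each). Its log2 fold change was -0.66 (SE 0.144, 95% interval -0.98 to -0.34), with edgeR adjusted p = 0.0474. The call was close to the threshold and was lost when any 1 of the 8 libraries was left out, with adjusted p between 0.0683 and 0.472 and log2 fold changes between -0.81 and -0.49. It was also lost with DESeq2's size factors in edgeR (adjusted p = 0.0571) and with filterByExpr (0.0557), and the adjusted p ran from 5.10e-08 to 0.472 over 17 alternatives, of which 7 called it. Of 50-base windows in the transcripts of *Ccl9*, 1.97% also occur in other genes, none of them a member, and the other 9 members share no such window.

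*Ccl5* showed the lowest fitted value of the members with counts in every library, -1.62 (95% interval -2.53 to -0.70), but was not called (edgeR adjusted p = 0.0864). It ran from -1.11 without WT library 1 in medium to -2.45 without *Ncoa6*-KO library 1 in medium. *Ccl7* had -0.82 (-1.31 to -0.34, adjusted p = 0.098) and *Ccl6* -0.50 (-0.80 to -0.19, adjusted p = 0.113). *Ccl12* had -0.90 (adjusted p = 0.322) and *Ccl2* -0.53 (adjusted p = 0.263). In WT medium, library 1 held more than library 2 for 8 of the 10 members (*Ccl17* had 0 in both). Library 1 also held more for 6 members in *Ncoa6*-KO medium, and with LPS + MSU for 9 in WT and 8 in *Ncoa6*-KO. Without WT library 1 in medium, *Ccl12* was at -0.14 and *Ccl2* at -0.21. *Ccl3* had -0.02, with an interval of -0.29 to 0.26, and *Ccl4* -0.19 (-0.54 to 0.16). For *Ccl22* the 13 and 4 reads gave no usable fold, and for *Ccl17* none is given.

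With LPS + MSU, 0 of the 10 members were called between genotypes by edgeR, where 3.59% of all genes tested were called in either direction. An unadjusted p under 0.05 was found for 3 members (*Ccl6*, *Ccl17* and *Ccl4*) and for 17.4% of all genes tested. DESeq2 called 1 member (*Ccl6*) and 4.14% of all genes, and limma-voom 1 member (*Ccl17*) and 2.50% of all genes. The fitted value was below 0 for 9 members, with a median of -0.27 (-0.31 without *Ccl17*) against 0.00 over all genes, and for *Ccl3* it was 0.03 when scaled by library totals. Both *Ncoa6*-KO libraries lay below both WT libraries for 6 of 10 members, where 22.7% of all genes did so. The comparisons at rest and after the stimulus used different libraries, but whether the mice differed between the conditions is not given.

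*Ccl17* had the opposite sign. It had 162 ± 5.57 normalized counts in *Ncoa6*-KO and 83.5 ± 10.4 in WT BMDMs with LPS + MSU (SD, n = 2 libraries each), 1.94-fold more. The log2 fold change of 0.95 (SE 0.26, 95% interval 0.37 to 1.54) had an edgeR adjusted p of 0.0839 and was not called. It passed in 4 of 17 alternatives, and its adjusted p ran from 0.00445 to 0.424 over them. *Ccl22*, its neighbour on chromosome 8, had -0.13 (-0.69 to 0.44), and 0.28 without *Ncoa6*-KO library 2.

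The other 8 members had values from -0.48 to -0.05 with LPS + MSU, against -1.62 to -0.02 in medium. *Ccl6* had -0.44 (95% interval -0.75 to -0.13, edgeR adjusted p = 0.127) and *Ccl4* -0.34 (-0.68 to -0.01, adjusted p = 0.279). *Ccl5* had -0.48 (-1.07 to 0.11), *Ccl12* -0.37 (-0.95 to 0.20), *Ccl7* -0.31 (-0.77 to 0.15) and *Ccl9* -0.24 (-0.56 to 0.08). *Ccl2* had -0.09 (-0.52 to 0.34) and *Ccl3* -0.05 (-0.31 to 0.22). The difference between the knockout effects of both conditions was called for 0 members and for 0% of all genes tested by edgeR, with an unadjusted p under 0.05 for 1 member (*Ccl5*) and 1045 genes. DESeq2 called 30 genes and no member. In this fit, which has no replicate block, a knockout effect that differed between medium and LPS + MSU was thus not called for any member.

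**Figure D4:**
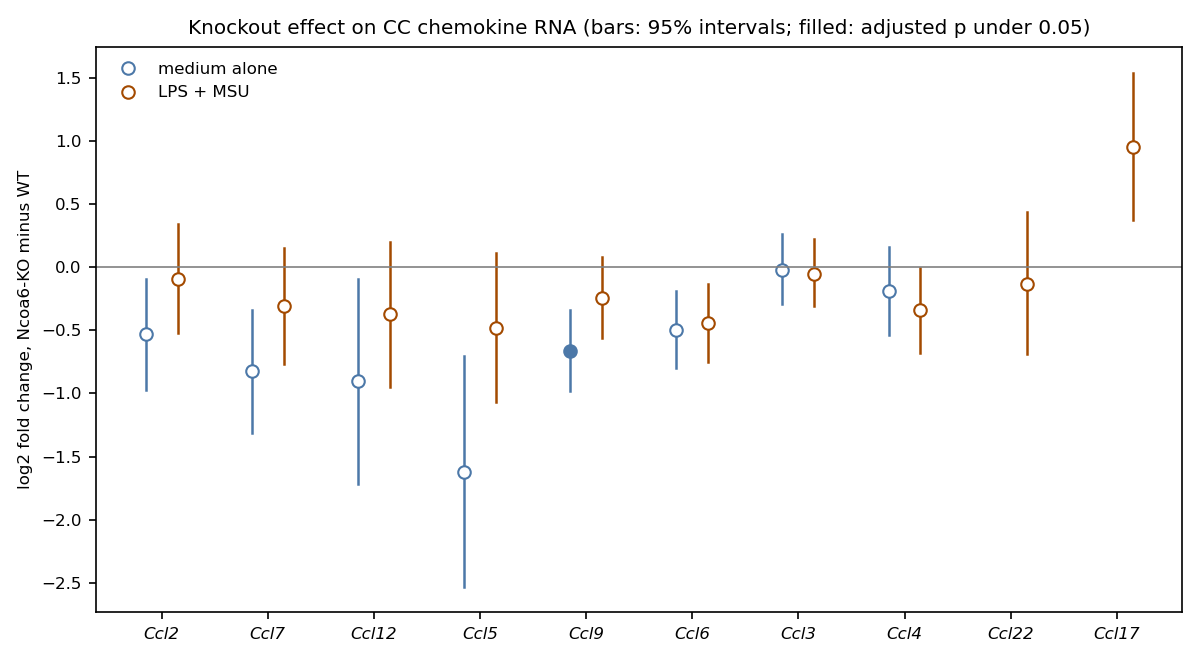
Log2 fold change of *Ncoa6*-KO over WT for each member in both culture conditions, with 95% intervals; filled points have an adjusted p under 0.05, and *Ccl22* and *Ccl17* with medium alone are left out for low counts. *Ccl9* with medium alone, at -0.66, is the filled point, and *Ccl17* with LPS + MSU, at 0.95, lies above 0.

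The members also varied together to different degrees. Over the 8 libraries, with the mean of each culture condition taken out of log2 CPM, *Ccl2*, *Ccl7* and *Ccl12* had Pearson r between 0.96 and 0.97 with each other. *Ccl5* and *Ccl9* had r = 0.96 and *Ccl9* and *Ccl6* 0.93. *Ccl3* had the weakest relations, from 0.19 with *Ccl2* to 0.61 with *Ccl4*. These are descriptions, since the libraries share their genotype and preparation. The genes most like *Ccl9* among 11219 were *Psmb8* (r = 0.997), *Psmb10* (0.996) and *Psme2* (0.996). *Psmb8* and *Psmb10* encode immunoproteasome subunits and *Psme2* a proteasome activator subunit. *Psmb10* had -0.65 between genotypes in medium (edgeR adjusted p = 0.0483), *Psmb8* -0.51 (adjusted p = 0.0509) and *Psme2* -0.43 (adjusted p = 0.0975).

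Of 14 other CC chemokine genes, 6 passed the filter, and none was called between genotypes. LPS + MSU raised 3 of them in both genotypes (*Ccl8*, *Ccl20* and *Ccl24*) and lowered *Ccl27a*. *Ccl8* (MCP-2) went from 3.54 ± 1.36 to 858 ± 340 normalized counts in WT and from 1.57 ± 0.259 to 728 ± 279 in *Ncoa6*-KO BMDMs (SD, n = 2 libraries each). *Ccl20* (MIP-3α) was at 0 in all libraries in medium and at 2.61 to 5.54 normalized counts with LPS + MSU. *Ccl27a* had log2 fold changes of -1.52 in WT and -1.13 in *Ncoa6*-KO BMDMs. *Ccl24* (eotaxin-2) went from 4.67 ± 2.95 to 42.2 ± 18.7 and from 1.83 ± 1.35 to 41.3 ± 26.7.

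Of 14 receptor and decoy receptor genes, 9 passed the filter, 0 were called between genotypes in medium and 1 was called lower in *Ncoa6*-KO BMDMs with LPS + MSU. Of all 17625 genes tested, 287 were called lower with LPS + MSU. The receptor gene called was *Ccr1*, which encodes a receptor of several CC chemokines, the *Ccl6* and *Ccl9* products among them. *Ccr1* had 604 and 441 normalized counts in WT and 197 and 270 in *Ncoa6*-KO libraries with LPS + MSU (log2 fold change -1.16, SE 0.246, edgeR adjusted p = 0.0296). In medium *Ccr1* had a log2 fold change of -0.51 (edgeR adjusted p = 0.413), and the difference between conditions was not called. LPS + MSU raised 5 receptor genes and lowered 1 in WT, and raised 4 and lowered 1 in *Ncoa6*-KO BMDMs. Of all genes tested, 24.7% were called higher in WT and 25.2% in *Ncoa6*-KO BMDMs, and 5375 and 4913 genes were called lower. *Ccrl2*, an atypical chemokine receptor, rose 99.8-fold in WT and 93.2-fold in *Ncoa6*-KO BMDMs. *Ccr7*, the receptor that guides cells to lymph nodes, was at 0 in every library in medium and had 30.5 and 28.9 normalized counts in WT and 27.4 and 14 in *Ncoa6*-KO libraries with LPS + MSU. *Ccr9* rose from 3.82 ± 4.34 to 66.3 ± 1.67 normalized counts in WT and from 2.96 ± 1.71 to 48.6 ± 3.39 in *Ncoa6*-KO BMDMs (SD, n = 2 libraries each). *Ccr2*, the receptor of the *Ccl2*, *Ccl7* and *Ccl12* products, was the gene that fell, with log2 fold changes of -1.42 in WT and -2.42 in *Ncoa6*-KO BMDMs.

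All 22 genes of a list of signal and transcription factors known to act on CC chemokine genes were tested. LPS + MSU raised 18 of them and lowered 2 (*Irf3* and *Stat6*) in both genotypes, where 24.7% (WT) and 25.2% (*Ncoa6*-KO) of all genes were called higher. Between genotypes, 1 was called lower in medium and 1 with LPS + MSU, where 230 and 287 of all 17625 genes tested were. *Irf7*, an interferon regulatory factor, had 2857 and 2281 normalized counts in WT and 1101 and 680 in *Ncoa6*-KO libraries with medium alone (-1.53, SE 0.201, edgeR adjusted p = 0.00568). *Il10*, an anti-inflammatory cytokine that restrains chemokine genes, had 2634 and 1306 in WT and 589 and 439 in *Ncoa6*-KO libraries with LPS + MSU (-1.94, SE 0.268, adjusted p = 0.00518). *Ifnb1* rose from 0.805 ± 0.0776 to 294 ± 56.9 normalized counts in WT and from 1.13 ± 0.362 to 180 ± 33.4 in *Ncoa6*-KO BMDMs (SD, n = 2 libraries each). *Nfkbia*, an inhibitor and target of NF-κB, rose by 4.17 in WT and 4.16 in *Ncoa6*-KO BMDMs on the log2 scale.

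All 10 genes of a list of mRNA decay factors and proteases known to act on chemokines were tested, with 2 called lower in *Ncoa6*-KO BMDMs in each condition and 0 higher. *Mmp14*, a membrane metalloproteinase, had 624 and 466 normalized counts in WT and 177 and 138 in *Ncoa6*-KO libraries with medium alone (-1.78, SE 0.178, edgeR adjusted p = 0.00169), and -0.73 with LPS + MSU (adjusted p = 0.0287). *Mmp9*, a gelatinase, had 541 and 440 in WT and 293 and 327 in *Ncoa6*-KO libraries with medium alone (-0.67, SE 0.121, adjusted p = 0.0245). *Zfp36* encodes tristetraprolin, which destabilises AU-rich mRNAs. It had 24752 and 17220 in WT and 12180 and 11653 in *Ncoa6*-KO libraries with LPS + MSU (-0.82, SE 0.147, adjusted p = 0.0155). Its relative *Zfp36l1* fell with LPS + MSU, with log2 fold changes of -3.36 in WT and -3.50 in *Ncoa6*-KO BMDMs.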

How the data were processed

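Poly(A) RNA of 8 BMDM libraries was sequenced in read pairs from stranded libraries. The authors aligned the reads to GRCm38 with STAR 2.7.3a and estimated counts with RSEM 1.3.3, and the deposited values are these expected counts per gene, not normalized, for 50615 genes. Expected counts assign reads shared between genes by estimation. Counts were rounded, and the 17625 genes with at least 10 counts over all libraries were kept. edgeR 4.0.16 in R 4.3.3 fitted the 4 groups together with TMM scaling and a quasi-likelihood model without the replicate number. Calls required p under 0.05 after Benjamini-Hochberg adjustment over all genes tested. The study's methods name DESeq2, which was run as an alternative (version 1.42.0), as was limma-voom (limma 3.58.1). The exact permutation test of 2 libraries against 2 cannot go below p = 0.333, so single genes were tested only within these fits.

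The study's methods say that the BMDMs came from different mice, 2 per group. Library totals ran from 25281955 to 33673552 counts, and intervals of count ratios (95%, exact) cover counting error only. TPM were computed from counts and the exons of a GENCODE annotation of GRCm38. The fit was also run on simulated data, and the outcome is not given here. Of the receptor list, 1 gene is not reported here. Named genes are the 10 members, list genes called between genotypes, the list genes with the largest stimulus changes (at most 4 per list), *Ncoa6*, and the 3 genes with the highest r with each member called. *Ccr2*, *Irf3*, *Stat6* and the markers given singly were named after their values were seen. The members, lists and alternatives were chosen with earlier results of these data known.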

Additional observations from a re-analysis of the deposited data

How the results depend on the processing

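*Ccl17* and *Ccl22* had too few counts in medium for a genotype comparison there. The 9 calls with LPS + MSU in each genotype were kept under every alternative run, while the genotype calls were not stable. With medium alone, the 1 member called became 2 with DESeq2 (2.54% of all genes) and 6 without a filter on low counts (4.67% of all genes). It became 0 with DESeq2's size factors in edgeR, 0 with filterByExpr and 0 with an absolute log2 fold change over 1. Leaving out 1 library gave between 0 and 1 members, and the 1 was *Ccl7*, without WT library 2 in medium. With LPS + MSU, 0 members became 1 with DESeq2 (*Ccl6*), 1 with limma-voom (*Ccl17*) and 4 without a filter (6.54% of all genes). For the difference between conditions, 0 became 1 without a filter (*Ccl5*, with 1.09% of all genes called). The cause was not tested.

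The labels give equal replicate numbers to the groups but no source says that they mark the same mouse, so the main fit did not treat the number as a pairing. Deviations of same-numbered libraries correlated at 0.31 (WT) and 0.369 (*Ncoa6*-KO) between conditions, above the 0.0523 to 0.199 between genotypes. Whether same-numbered libraries of a genotype share a mouse is therefore not settled, and fits with a replicate block are given beside the main fit. With the replicate block across all groups, 4 members were called in medium and 3 in stimulated BMDMs, where 5.80% and 8.69% of all genes were called. With the replicate block within each genotype 6 and 7 members were called, where 10.7% and 14.7% of all genes were. That fit also called the difference between conditions for 3 members and 2.52% of all genes, with adjusted p = 8.31e-04 for *Ccl5*, 0.0384 for *Ccl7* and 0.0123 for *Ccl9*.

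Of the members' log2 fold changes under alternatives, 734 kept direction and call, 36 gained and 10 lost a call, and 27 changed sign. For *Ccl6* the response to LPS + MSU was -0.55 in WT and -0.45 in *Ncoa6*-KO BMDMs with library totals and -0.05 in WT without WT library 2 in medium, and the difference between conditions was between -0.13 and 0.23 when 1 library was left out (below 0 at -0.13, -0.13, -0.05 and -0.03). For *Ccl3* the knockout value with medium alone was 0.00 with DESeq2 and with its size factors, 0.02 with library totals and with only the 4 libraries compared, and -0.10 to 0.08 when 1 library was left out (above 0 for 6 libraries, 0.02 to 0.08, with 0.06 among them). With library totals it was 0.03 with LPS + MSU and 0.01 for the difference between conditions, which ran from -0.12 to 0.05 when 1 library was left out. Leaving out 1 library gave *Ccl4* -0.38 to 0.03 with medium alone and -0.37 to 0.04 for the difference between conditions. *Ccl12* ran from -0.23 (without WT library 1 in medium) to 1.00 for that difference. Leaving out 1 library gave *Ccl22* -2.51 to 0.04 with medium alone, -0.73 to 0.28 with LPS + MSU and -0.17 to 2.38 for the difference.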

Other observations

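The marker lists held values that belong in no comparison of the CC chemokine genes. *Lck* was the T and NK cell marker that moved with the stimulus, from 5.25 to 9.66 normalized counts in medium to between 74.2 and 195 with LPS + MSU, while *Cd3g*, *Trac*, *Ncr1* and *Gzmb* were at 0 in every library. *Kit* went from between 278 and 590 normalized counts in medium to between 20.8 and 70 with LPS + MSU, while the mast cell genes *Mcpt4* and *Fcer1a* were at 0 in every library. The 6 B cell markers summed to 33.2 to 35.8 normalized counts in WT and 11.2 to 13.1 in *Ncoa6*-KO libraries with LPS + MSU. Only 1 T and NK cell marker, 1 mast cell and basophil marker and 4 B cell markers passed the count filter. None of these was called between genotypes, and the other markers of these lists could not be tested.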
